A study of Mus musculus with 8 samples.

Results

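The step from 15 to 45 min of a tumour necrosis factor (TNF) response was followed in wild-type fibroblasts, to see which transcripts started only after 15 min and which early ones were already falling. The members are the genes with at least 20 counts in the higher of the wild-type 15 and 45 min libraries, and 12928 of the 45706 gene rows qualified. Primary mouse embryonic fibroblasts (MEFs) of strain C57BL/6 were kept overnight in medium with 0.5% serum and given TNF at 10 ng/ml. Chromatin-associated RNA, the RNA still attached to or close to its gene, was sequenced at 0, 15, 45 and 60 min from wild-type cells (WT) and from crel-/-rela-/- cells (KO), which carry disrupted genes for the NF-kB subunits cRel and RelA. Each genotype and time had 1 library, with no replicate and no untreated library at the later times, so a change with TNF cannot be told apart from one with time or handling. The labels do not say whether the libraries came from separate cultures. Every interval given is an exact Clopper-Pearson interval at 95% for counting error alone, and no test across conditions was possible.

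TNF binds its receptor and activates the IKK kinase complex, which marks the inhibitor IkBa for destruction and frees NF-kB dimers to enter the nucleus. NF-kB then activates genes for chemokines, adhesion molecules and survival factors, and also genes for its own subunits and inhibitors, which feed back on the signal. In fibroblasts the same receptor activates MAP kinases, and these act on serum-response genes such as Fos and Egr1, known for transcription that starts within minutes and soon stops. RNA on chromatin is enriched for transcripts being made, and so it follows such starts and stops more closely than the cell's total RNA.

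The 250 bases before the start site are shown for 5 genes, each standing for a time pattern described below: Csf1 for late starters, Cxcl10 for genes that went on rising, Nfkbia for early genes that then changed by less than 2-fold, Fos for early genes that fell, and Srf for genes that were lower at 45 min without an early rise. The stretches come from the RefSeq promoter table (GRCm38.p6, the assembly of mm10). They are read 5′ to 3′ on the gene's own strand and end at the base before the start site. Capitals mark matches, on either strand, to the kB consensus (the site of NF-kB), the CArG box (the site of serum response factor), TGAGTCA (an AP-1 site), TGACGTCA (a cAMP response element) or TATAAA.
Csf1: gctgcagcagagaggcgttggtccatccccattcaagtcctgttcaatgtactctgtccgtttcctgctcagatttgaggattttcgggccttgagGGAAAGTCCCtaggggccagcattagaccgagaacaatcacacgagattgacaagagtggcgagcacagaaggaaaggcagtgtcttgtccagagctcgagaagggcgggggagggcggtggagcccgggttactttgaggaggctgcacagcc
Cxcl10: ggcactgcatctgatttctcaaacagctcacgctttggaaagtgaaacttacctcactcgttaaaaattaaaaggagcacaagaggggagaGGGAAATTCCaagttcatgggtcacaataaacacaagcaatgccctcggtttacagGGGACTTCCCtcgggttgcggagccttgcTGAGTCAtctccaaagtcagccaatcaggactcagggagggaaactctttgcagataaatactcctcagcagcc
Nfkbia: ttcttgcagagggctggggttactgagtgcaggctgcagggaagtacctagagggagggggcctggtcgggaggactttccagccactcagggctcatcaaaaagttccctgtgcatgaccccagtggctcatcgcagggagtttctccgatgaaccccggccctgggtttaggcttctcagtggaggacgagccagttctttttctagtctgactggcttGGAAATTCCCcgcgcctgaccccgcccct
Fos: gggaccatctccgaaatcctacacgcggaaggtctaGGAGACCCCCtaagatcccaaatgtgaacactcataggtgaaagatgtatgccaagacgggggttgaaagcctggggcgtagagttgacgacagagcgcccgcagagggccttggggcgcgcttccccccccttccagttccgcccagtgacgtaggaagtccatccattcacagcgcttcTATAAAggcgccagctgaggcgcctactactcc
Srf: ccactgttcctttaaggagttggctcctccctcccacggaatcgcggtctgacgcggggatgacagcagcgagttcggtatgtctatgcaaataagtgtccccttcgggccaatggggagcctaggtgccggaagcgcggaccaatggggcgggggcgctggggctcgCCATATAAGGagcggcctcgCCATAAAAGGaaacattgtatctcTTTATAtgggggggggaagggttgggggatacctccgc

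The Csf1 stretch lies at chr3:107760470-107760719 on the minus strand and holds a kB match 154 to 145 bases before the start site. The Cxcl10 stretch, at chr5:92348890-92349139 on the minus strand, holds kB matches at 159 to 150 and 103 to 94 bases and TGAGTCA at 74 to 68 bases. The Nfkbia stretch, at chr12:55492648-55492897 on the minus strand, holds a kB match at 29 to 20 bases. The Fos stretch, at chr12:85473640-85473889 on the plus strand, holds a kB match at 214 to 205 bases and TATAAA at 33 to 28 bases. The Srf stretch, at chr17:46556163-46556412 on the minus strand, holds CArG boxes at 82 to 73 and 62 to 53 bases and, on the opposite strand, TATAAA at 38 to 33 bases. A match is a description of the letters and not evidence of binding.

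Without Gm26917, Gm42418 and Gm23935, gene models that took 56.05% to 63.42% of all counts in the WT libraries, the WT totals were 5432508, 5288630, 5514045 and 5470474 counts at 0, 15, 45 and 60 min. All ratios are shares of these totals. Fibroblast markers were chosen as a check (13 of 13 measured, collagens, Vim and Pdgfra among them). They summed to 28430 CPM (the usual scaling of a count to its library total) at 0 min, 20180 at 15 min and 20890 at 45 min. None of the 13 was called either way from 15 to 45 min. In the wider list of 19 fibroblast identity and matrix genes, 0 were called higher and 2 lower, Osr1 and Osr2. Leukocyte markers summed to 168.9 and 140.2 CPM in WT at 15 and 45 min, against 24.21 and 18 in KO. Ptprc, the pan-leukocyte antigen CD45, had 168 and 156 WT counts against 2 and 0 KO counts, while the lymphocyte markers Cd3e and Ms4a1 were at 0 in both WT libraries. The WT sums for endothelial markers were 18.15 and 20.13 CPM, for epithelial markers 3.214 and 3.264, and for cartilage markers 17.96 and 19.04. In KO at 15 and 45 min the same sums were 26.1 and 38.71, 6.645 and 11.51, and 48.65 and 61.31. At 0 min the cartilage markers summed to 1054 CPM in KO against 26.51 in WT. In bulk RNA, fewer cells of a type and less RNA per cell cannot be told apart.

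A gene was called higher or lower at 45 min where its share differed from that at 15 min by at least 2-fold with an interval that excluded no change. Of the 12928 genes, 524 (4.05%) were called higher and 318 (2.46%) lower, so that 62.2% of the calls were increases. The median log2 ratio over all genes was -0.054. Keeping the 3 gene models in the totals moved this median to 0.069 and the calls to 679 higher and 208 lower, or 76.6% increases. Of the 134 genes with exactly 20 counts in the higher library, 17 were called, and 15 of the 120 genes with 19 counts, just outside the rule, would have passed the same call. The earlier step, 15 over 0 min, had the reverse balance: 103 of 13031 genes (0.790%) were called higher and 250 (1.92%) lower. Because both ratios use the 15 min library, an error in it favours opposite balances. In KO, 15 over 0 min had 78 of 12951 genes called higher and 228 lower.

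Genes were sorted by both steps. Late starters, called higher at 45 over 15 min with a 15 over 0 min ratio inside 1.5-fold, numbered 326. Early changes below that limit are among them. Another 50 genes were called higher after a small early rise beyond 1.5-fold and 92 after a small early dip. Only 18 genes were called higher in both steps and are named continuing risers. Of the genes called higher at 15 min, 68 were called neither way afterwards, named here as genes that held although changes under 2-fold are among them, and 17 were called lower at 45 min. A further 38 genes were called lower at 15 min and higher at 45 min. Another 301 were called lower at 45 min without being called higher at 15 min, although rises under 2-fold are among them. Counts of genes that held, fell, or dipped and then rose depended on the settings: with the 3 gene models in the totals 26 genes held, 8 fell and 93 dipped and then rose, and with at least 50 counts it was 28, 9 and 10. The 15 min library stands in both ratios, so an error in it favours falls after a rise and rises after a dip. The 15 over 0 min ratio could be measured with at least 20 counts for 260 of the 326 late starters, with a median log2 ratio of -0.041.

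**Figure D1:**
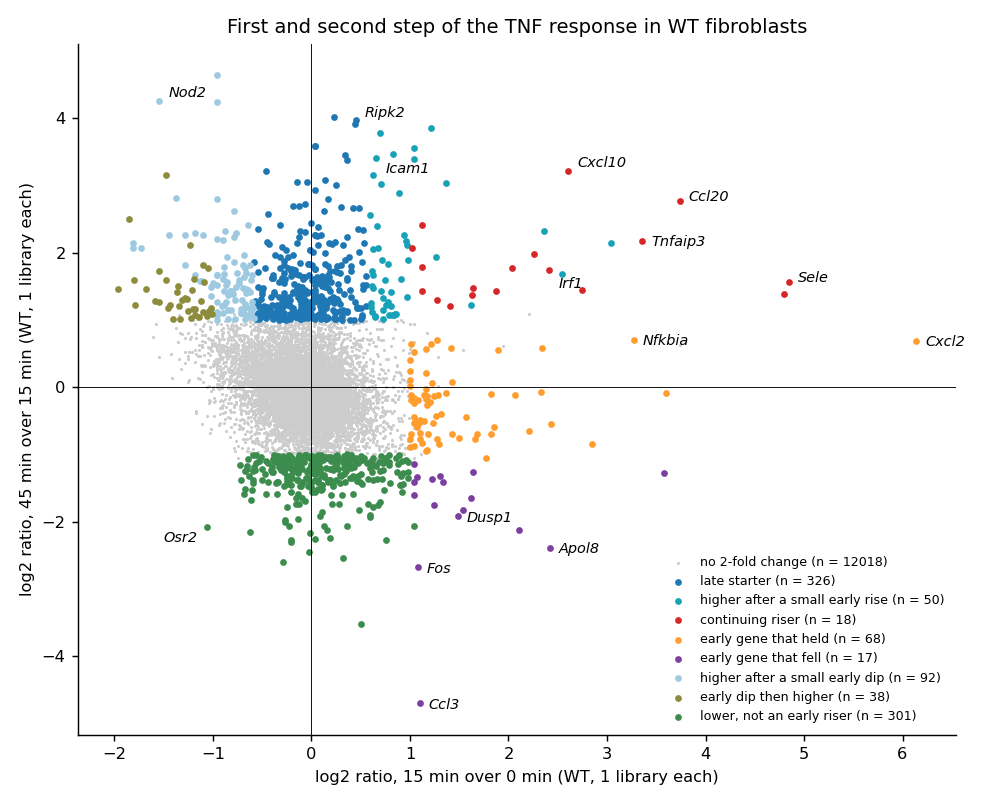
Each point is 1 of the 12928 genes, with the log2 ratio of WT 15 over 0 min on the horizontal axis and of WT 45 over 15 min on the vertical axis, 1 library each, coloured by the class defined in the text (genes at 0 in a library used are not drawn). Late starters such as Ripk2 (3.97) form the column above 0, continuing risers such as Cxcl10 and Tnfaip3 lie at the upper right, Nfkbia and Cxcl2 lie far right near the horizontal line, and Fos (-2.68) and Apol8 lie at the lower right.

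Ripk2 led the late starters by the bound of its interval. It encodes the kinase that relays signals from the bacterial sensors NOD1 and NOD2, and lies on chromosome 4 from 16122733 to 16163647 (mm10, minus strand). It had 113, 150, 2458 and 1903 counts in WT at 0, 15, 45 and 60 min. The 0 and 15 min libraries were low and within 1.5-fold of each other, and both late libraries were high. The ratio of 45 over 15 min was 15.7-fold, a log2 ratio of 3.97 (interval 3.74 to 4.22). Stx11, a syntaxin of membrane fusion in secretory cells, followed the same course with 37, 49, 772 and 626 counts and a log2 ratio of 3.92 (3.50 to 4.36). Tnfaip2, a TNF-induced gene of membrane remodelling, had 144, 177, 2027 and 2003 counts, a log2 ratio of 3.46 (3.24 to 3.69). In each of these 3 genes the 15 min library was within 1.5-fold of the starting level, and 45 min stood at least 11.0-fold above 15 min, the value for Tnfaip2.

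Csf1, the growth factor that maintains macrophages, lies on chromosome 3 from 107741048 to 107760469 on the minus strand, just beyond the stretch shown above. It had 1254, 1455, 12164 and 13844 counts, and 45 min stood 8.02-fold above 15 min (log2 ratio 3.0, 2.92 to 3.08). Its count at 60 min was the highest, whereas Ripk2 and Stx11 had their highest counts at 45 min. Cx3cl1, a membrane-bound chemokine, had 41, 36, 311 and 509 counts (3.05, 2.55 to 3.59). Nfatc1, a calcineurin-dependent transcription factor gene that spans 106867 bases, had 127, 136, 1204 and 1183 counts (3.09, 2.83 to 3.35). Gfpt2, an enzyme of the hexosamine pathway, had 55, 60, 436 and 587 counts (2.80, 2.41 to 3.22), and Cilp2, a matrix protein gene, had 7, 8, 136 and 187 (4.03, 3.01 to 5.27). The wide interval of Cilp2 reflects its 8 counts at 15 min.

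Klf10 and Noct completed the leading 10. Klf10, a Kruppel-like factor known as a TGF-beta early gene, had 72, 90, 982 and 988 counts in WT (log2 ratio 3.39, 3.08 to 3.72). Noct, which encodes the phosphatase nocturnin, had 243, 317, 2104 and 1598 counts (2.67, 2.50 to 2.85). Both were also called higher in KO: Klf10 went from 101 to 820 counts and Noct from 325 to 1141 between 15 and 45 min. These are KO log2 ratios of 2.84 (2.54 to 3.15) and 1.63 (1.45 to 1.81). Nfatc1 and Cx3cl1 were called higher in KO as well, at 1.20 and 1.11, and Ripk2, Stx11, Tnfaip2, Csf1 and Gfpt2 were called neither way there. Cilp2 had too few counts in KO to be measured, 2 and 5 at 15 and 45 min.

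**Figure D2:**
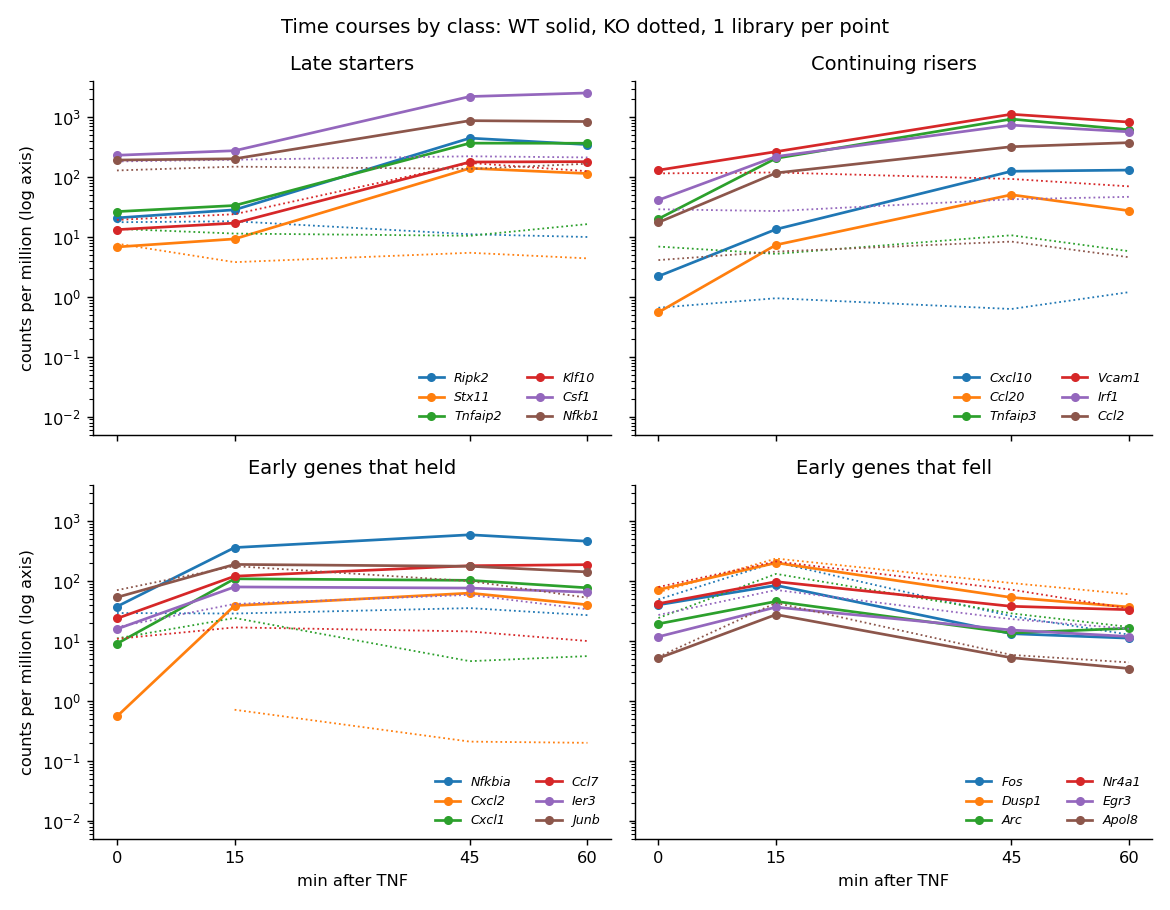
CPM on a log axis against minutes after TNF for 6 genes of each of 4 classes, with WT libraries as points on solid lines and KO libraries as dotted lines, 1 library per point (KO libraries with 0 counts are not drawn, and Ccl20 therefore has no KO line). Late starters change by less than 1.5-fold to 15 min in WT and are high at 45 and 60 min, and the continuing risers climb over both steps. The genes that held change by less than 2-fold from 15 to 45 min in WT, and the genes that fell peak at 15 min in WT and KO alike.

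Among genes for NF-kB itself, 4 of the 5 subunits were called higher at 45 over 15 min and none lower, with a list median log2 ratio of 2.07 against -0.054 for all genes. Nfkb1, the gene for p105 and p50, had 1043, 1066, 4811 and 4615 counts, a log2 ratio of 2.11 (2.02 to 2.21). Rel, the gene for cRel, had 151, 173, 805 and 506 counts (2.16, 1.92 to 2.40). Both were late starters. Relb, which encodes a subunit of the alternative pathway, had 229, 356, 1556 and 1412 counts (2.07, 1.90 to 2.24). Its partner Nfkb2, the gene for p100 and p52, had 413, 690, 2575 and 2426 counts (1.84, 1.72 to 1.96). Both of these began with a small rise at 15 min. Rela, the gene for RelA, had 324, 406, 704 and 589 counts, and its log2 ratio of 0.73 (0.56 to 0.91) was below the 2-fold threshold. In KO the same list had 0 of 5 called either way, with a median of 0.09. What the KO alleles of Rela and Rel lack is not stated by the labels, and KO counts over those loci are not read as a check.

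The 6 inhibitors of the IkB family did not share 1 time course. Nfkbia, the gene for IkBa, rose first: it had 204, 1916, 3264 and 2527 counts, and its second step was a log2 ratio of 0.71 (0.63 to 0.79), below 2-fold. Nfkbie, the gene for IkBe, did nearly all its rising after 15 min, with 55, 95, 1100 and 1211 counts and a log2 ratio of 3.47 (3.17 to 3.79). Bcl3, a nuclear IkB protein that binds p50 and p52, had 51, 81, 687 and 780 counts (3.02, 2.69 to 3.37). Nfkbid, another nuclear IkB protein, rose in both steps with 21, 75, 212 and 134 counts (1.44, 1.05 to 1.84). Nfkbib had 44, 76, 131 and 96 counts (0.73, 0.31 to 1.15), and Nfkbiz had 793, 1507, 1510 and 1203 (-0.06, -0.16 to 0.05), both called neither way. Thus 3 of 6 inhibitors were called higher in this step and 0 lower.

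Other feedback genes also divided. Tnfaip3, the gene for the ubiquitin-editing enzyme A20 (chromosome 10, 19000910 to 19015657, minus strand), had 109, 1086, 5115 and 3368 counts and was called higher in both steps, with a log2 ratio of 2.18 (2.08 to 2.27) in the second. Its adaptor Tnip1 was a late starter, with 214, 205, 765 and 791 counts (1.84, 1.62 to 2.07). Of the 14 measured genes in the list of A20 and ubiquitin feedback, 5 were called higher and 0 lower. Those called were Tnfaip3, Tnip1, Tnip3, Tnfaip2 and Tnfaip8. Tnfaip2 and Tnfaip8 are TNF-induced genes that are not known for ubiquitin editing. The list median was 0.12, so that most of the list was near the median of all genes. The subunits of the linear ubiquitin ligase had log2 ratios of 0.13 (Rnf31), -0.29 (Rbck1) and -0.39 (Sharpin), none called.

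Leukocyte adhesion genes were among the lists with the highest share called, 5 higher and 0 lower of 7 measured (median 1.56). Icam1, a ligand of leukocyte integrins, had 71, 109, 1204 and 1314 counts, a log2 ratio of 3.41 (3.12 to 3.70). It passed 1.5-fold but not 2-fold in the first step and so counts among the small early rises. Vcam1, which binds the integrin VLA-4, rose in both steps with 708, 1403, 6154 and 4525 counts (2.07, 1.99 to 2.16). Cd44, a hyaluronan receptor, had 952, 1358, 4480 and 3649 counts (1.66, 1.57 to 1.75), and the integrin subunit gene Itgav had 1536, 1587, 3935 and 2916 (2.38-fold, with a log2 interval of 1.17 to 1.33). Sele, the gene for E-selectin, had 1, 28, 86 and 39 counts (1.56, 0.93 to 2.23). All 5 were highest at 45 min except Icam1, which was highest at 60 min.

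The 18 continuing risers included 3 chemokine genes. Cxcl10, a chemokine for activated T cells, had 12, 71, 688 and 715 counts and a log2 ratio of 3.22 (2.86 to 3.59) in the second step. Ccl20, a chemokine for lymphocytes and dendritic cells, had 3, 39, 279 and 150 counts (2.78, 2.29 to 3.30). Ccl2, a monocyte chemokine, had 95, 619, 1767 and 2051 (1.45, 1.32 to 1.59). These chemokines thus climbed in both steps, and Ccl20 alone among them was lower at 60 than at 45 min. Irf1, an interferon regulatory factor, had 224, 1162, 4053 and 3110 counts (1.74, 1.65 to 1.84). Lif, a cytokine of the IL-6 family, had 110, 233, 838 and 965 (1.79, 1.58 to 2.0). Traf1, a signalling adaptor that acts with the cIAP proteins, had 6, 28, 115 and 91 (1.98, 1.37 to 2.63).

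Trim47, Rnd1 and Gadd45b had the same shape. Trim47, a ubiquitin ligase gene, had 41, 87, 483 and 527 counts (2.41, 2.08 to 2.76), and Rnd1, a small GTPase gene, had 12, 48, 172 and 110 (1.78, 1.31 to 2.27). Gadd45b, a stress gene, had 93, 280, 753 and 694 (1.37, 1.17 to 1.57). The other continuing risers, beside Tnfaip3, Vcam1, Nfkbid and Sele above, were Pim1, Tlr2, Foxs1, Clec4e and the predicted model 1500005C15Rik. In KO at 15 and 45 min Tlr2, a receptor for bacterial lipoproteins, had 2 and 9 counts and Clec4e, a myeloid lectin gene, had 0 and 1, beside leukocyte marker sums of 24.21 and 18 CPM against 168.9 and 140.2 in WT. The part of leukocytes in the WT counts of both was not tested. Of the 18, all were called higher at 60 over 0 min and 2 were called lower at 60 over 45 min. The class was sorted with the 0 and 45 min libraries, so both results are favoured by the sorting.

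Early genes that held included the neutrophil chemokines. Cxcl1 had 49, 577, 567 and 422 counts, a second step of -0.09 (-0.26 to 0.08) on the log2 scale. Cxcl2 had 3, 206, 347 and 220 counts (0.69, 0.44 to 0.95), and the monocyte chemokine Ccl7 had 129, 638, 994 and 1027 (0.58, 0.43 to 0.73). Their first step was large and the second stayed below 2-fold. Ier3, an early response gene of survival, had 86, 422, 421 and 357 counts (-0.06, -0.26 to 0.13), and the AP-1 subunit gene Junb had 291, 1002, 974 and 777 (-0.10, -0.23 to 0.03). Zfp36, the gene for the mRNA decay factor tristetraprolin, had 153, 690, 456 and 337 (-0.66, -0.83 to -0.49), and Ptgs2, the gene for cyclooxygenase 2, had 263, 688, 443 and 379 (-0.70, -0.87 to -0.52). Intervals of the last pair lie below no change but their ratios stay inside 2-fold. The class holds 29 predicted models and small RNA genes among its 68 members, and its median second step was -0.253. These genes were chosen to show roles, with their values seen, except Nfkbia.

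Of the early genes, 17 had fallen by at least 2-fold at 45 min. Fos, the AP-1 subunit gene on chromosome 12 (85473890 to 85477273, plus strand), had 218, 448, 73 and 61 counts. It was highest at 15 min, and its 45 and 60 min libraries were below its level at 0 min. The second step was a log2 ratio of -2.68 (-3.06 to -2.32), or 6.40-fold lower. Dusp1, which encodes a phosphatase that inactivates MAP kinases, had 390, 1065, 294 and 202 counts (-1.92, -2.11 to -1.73). Nr4a1, an orphan nuclear receptor gene, had 228, 517, 209 and 182 counts (-1.37, -1.61 to -1.13). Egr3, a zinc finger factor gene, had 64, 194, 84 and 65 (-1.27, -1.65 to -0.89). Arc, an activity-regulated gene best known from neurons, had 105, 242, 75 and 89 (-1.75, -2.14 to -1.37). All 5 are known as immediate early genes. At 60 min 4 of them had fewer counts than at 0 min, and Egr3 had 65 against 64.

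Apol8, an apolipoprotein L gene, had the same shape with 28, 146, 29 and 19 counts (-2.39, -3.02 to -1.81). Ereg, an EGF receptor ligand, had 58, 119, 49 and 37 (-1.34, -1.85 to -0.85). Apol genes have close copies, so counts of Apol8 are uncertain. The remaining named members were the chemokine gene Ccl3, the G protein regulator gene Rgs1 and Cd14, a co-receptor for lipopolysaccharide. Ccl3 had 12, 25, 1 and 6 counts (-4.70, -10.06 to -2.09), Rgs1 had 26, 64, 25 and 10 (-1.42, -2.15 to -0.73) and Cd14 had 28, 56, 22 and 27 (-1.41, -2.19 to -0.67). In the KO 15 and 45 min libraries these 3 genes had at most 3 counts, the number for Cd14 at 45 min, beside the leukocyte marker sums of 24.21 and 18 CPM there against 168.9 and 140.2 in WT. The part of leukocytes in these counts was not tested. Ccrl2, Cenpn, Cfap53, a small nucleolar RNA and 3 unnamed models make up the rest of the class.

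Genes lower at 45 min that were not called higher at 15 min, 301 in all, included serum-response genes whose early rise had stayed under 2-fold. Egr1 had 1118, 1620, 653 and 435 counts, a log2 ratio of -1.37 (-1.50 to -1.24). Ccn1, a matricellular protein gene, had 1805, 3477, 1424 and 1018 (-1.35, -1.44 to -1.26), and Actg1, a cytoplasmic actin gene with many close copies, had 444, 819, 289 and 256 (-1.56, -1.76 to -1.37). Srf, the gene for serum response factor itself, had 627, 870, 336 and 258 counts (-1.43, -1.62 to -1.25). In these genes 15 min was the highest library and 60 min the lowest. Adamts1, a metalloprotease gene, had 2521, 3284, 1365 and 1027 counts (-1.33, -1.42 to -1.24).

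Ahr, Card10 and Lpar4 had a 15 min count close to that at 0 min. Ahr, the aryl hydrocarbon receptor gene, had 217, 244, 76 and 116 counts (-1.74, -2.13 to -1.37). Card10, a scaffold gene of NF-kB signalling, had 88, 78, 21 and 48 (-1.95, -2.72 to -1.24). Lpar4, a lysophosphatidic acid receptor gene, had 99, 104, 30 and 42 (-1.85, -2.49 to -1.26). All 3 were lowest at 45 min. Osr2, a mesenchymal transcription factor gene, was below its start at 15 min already, with 131, 61, 15 and 24 counts (-2.08, -3.01 to -1.25), and its relative Osr1 had 303, 179, 84 and 84 (-1.15, -1.54 to -0.77). Adra2a, an adrenergic receptor gene, was highest at 15 min, with 31, 51, 11 and 10 counts (-2.27, -3.36 to -1.32).

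Other roles within the late rise were spread over several lists. For survival, Birc3, the gene for cIAP2, had 167, 225, 1199 and 960 counts (log2 ratio 2.35, 2.15 to 2.57), and 4 of 12 measured survival genes were called higher and 0 lower. For receptors of the TNF family, Fas had 137, 147, 614 and 630 (2.0, 1.74 to 2.27) and Cd40 had 20, 25, 123 and 171 (2.24, 1.61 to 2.92), with 3 of 11 called higher. For innate sensing, Nod2, the sensor that signals through Ripk2, had 9, 3, 60 and 69 (4.26, 2.65 to 6.58), and Casp4, an inflammatory caspase, had 19, 17, 115 and 125 (2.70, 1.96 to 3.53). In that list 5 of 17 were called higher and 1, Cd14, lower. Nod2 rests on 3 counts at 15 min, which its interval shows.

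Of 14 measured matrix proteases and inhibitors, 4 were called higher and 2 lower. Timp1, an inhibitor of metalloproteases, had 162, 153, 423 and 434 counts (1.41, 1.14 to 1.68). The collagenase gene Mmp13 had 25, 14, 38 and 34 (1.38, 0.46 to 2.38), and the gelatinase gene Mmp9 had 8, 3, 22 and 41 (2.81, 1.08 to 5.20), both low enough that their intervals are wide. Adamts5, an aggrecanase gene, was called lower with Adamts1 and had 1830, 1623, 702 and 573 (-1.27, -1.40 to -1.14). Of 11 cytokines and growth factors 3 were called higher (Csf1, Lif and Il6) and 1 lower (Ereg). Il6 passed with 3, 9, 22 and 14 counts (1.23, 0.05 to 2.53), close to the limit of measurement. Among mRNA decay regulators, Zc3h12a, the gene for the endonuclease regnase-1, had 129, 192, 662 and 681 (1.73, 1.49 to 1.96). Map3k8, the kinase TPL2 that lies upstream of ERK, had 123, 236, 915 and 779 (1.89, 1.69 to 2.11).

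Antigen presentation genes were called both ways. H2-K1 had 267, 294, 952 and 1168 counts (1.63, 1.44 to 1.83), and H2-D1 had 345, 267, 706 and 751 (1.34, 1.14 to 1.55), though H2 genes are near-identical and their counts are uncertain. Tapbp, the peptide-loading factor tapasin, had 320, 240, 656 and 954 (1.39, 1.17 to 1.61). Of 13 measured genes in this list 4 were called higher. Psmb8, an immunoproteasome subunit gene, was the 1 called lower, with 34, 40, 20 and 77 counts (-1.06, -1.91 to -0.25). It was above its starting count at 60 min, and with the 60 min library in place of 45 min its log2 ratio was 0.90. Guanylate-binding proteins, which act against pathogens inside cells, had 3 of 10 called higher and 0 lower. Gbp5 had 7, 11, 158 and 318 counts (3.78, 2.91 to 4.82), although Gbp genes too have close copies. Of 20 measured interferon-stimulated genes, 0 were called either way and the median was -0.213.

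The lists of early response, contractile and transcription factor genes were called in different directions. Of 14 measured EGR and IER genes 0 were called higher and 5 lower (Egr1, Egr3, Nr4a1, Srf and Arc), with a median of -0.764. Among contractile and CCN genes it was 0 higher and 4 lower of 15, with Cnn1 (calponin) at 68, 91, 36 and 25 counts (-1.40, -2.0 to -0.83) and Myl9 (a myosin light chain) at 274, 296, 134 and 113 (-1.20, -1.51 to -0.90) beside Actg1 and Ccn1. By contrast the list of other early transcription factors had 7 of 21 called higher and 0 lower. Bhlhe40, a repressor of the basic helix-loop-helix family, had 152, 185, 835 and 745 counts (2.11, 1.88 to 2.35). Snai1, a repressor known from epithelial to mesenchymal change, had 82, 70, 285 and 387 (1.97, 1.58 to 2.36). Ets1 had 441, 525, 1782 and 1442 (1.70, 1.56 to 1.85). AP-1 genes divided, with 1 higher (Maff, 1.07) and 2 lower (Fos and Fosb, -2.68 and -1.37) of 13.

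In the list of MAP kinase phosphatases and Sprouty genes, 3 of 13 were called higher and 2 lower. Those called lower were Dusp1 and Spry2, a Sprouty inhibitor of growth factor signalling, which had 356, 426, 178 and 150 counts (-1.32, -1.58 to -1.06). The 3 called higher were phosphatase genes. Dusp16, whose product acts on JNK and p38, had 194, 215, 604 and 295 (1.43, 1.20 to 1.66). Dusp8 had 128, 206, 436 and 302 (1.02, 0.78 to 1.27). Dusp14 had 10, 7, 25 and 7 (1.78, 0.53 to 3.23), and its log2 ratio was -0.05 with the 60 min library in place of 45 min. All 3 had their highest count at 45 min. Of 21 sterol synthesis genes, 16 p53 targets and 12 clock genes measured, 0 were called either way, with medians of 0.311, -0.208 and -0.070. These lists and their medians are descriptions beside 4.05% and 2.46% called over all genes, and no list was tested.

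**Figure D3:**
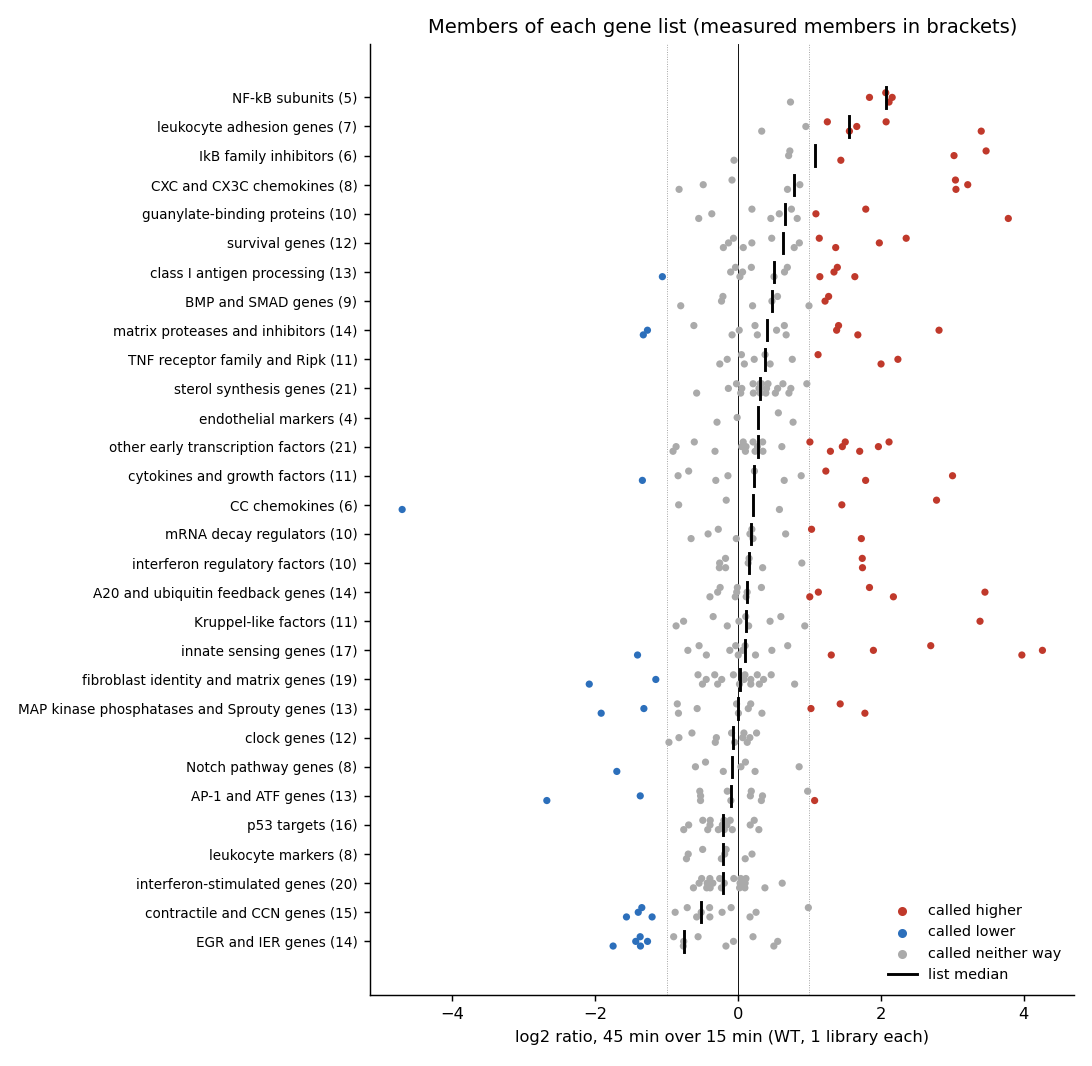
The log2 ratio of WT 45 over 15 min (1 library each) for every measured member of each gene list, with members called higher in red, lower in blue and neither in grey, the list median as a black bar and dotted lines at 2-fold. The NF-kB subunits, adhesion genes and IkB inhibitors lie furthest to the right and the EGR and IER genes furthest to the left, with medians of 2.07, 1.56, 1.08 and -0.764.

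The 60 min library has no part in the 45 over 15 min ratio, and 60 over 0 min shares no library with it. Over all genes, 599 of 13168 (4.55%) were called higher at 60 over 0 min and 716 (5.44%) lower. Of the genes called higher at 45 over 15 min, 489 could be measured at 60 over 0 min, and 321 of them (65.6%) were called higher and 2 lower. Of those called lower, 286 could be measured, and 138 (48.3%) were called lower and 3 higher. Within late starters, whose class also used the 0 min library, 231 of 309 (74.8%) were called higher at 60 over 0 min. All 45 measured genes with a small early rise were called higher at 60 over 0 min, and 25 of 79 (31.6%) with a small early dip. Of the genes called lower at 15 min and higher at 45 min, 2 of 38 were called higher and 2 lower at 60 over 0 min, and the others neither way. These classes, too, were sorted with the 0 min library, which stands in the 60 over 0 min ratio. Differences between the classes in that ratio are therefore favoured by the sorting. From 45 to 60 min, 143 of 12879 genes (1.11%) were called higher and 144 (1.12%) lower. Among the 326 late starters that last step gave 5 higher and 8 lower calls, with a median of 0.011. Of the genes called lower at 45 over 15 min, 219 could be measured in that last step. There 23 (10.5%) were called higher and 5 lower, with a median of 0.281. The 45 min library stands in both ratios, so an error in it favours such returns.

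In KO cells, taken at the same times in libraries of their own, 327 of 12434 genes (2.63%) were called higher at 45 over 15 min and 295 (2.37%) lower. Of the genes called higher in WT, 391 could be measured in KO, where 102 (26.1%) were called higher and 7 lower. Their median log2 ratio was 0.522 in KO, against 1.41 for all 524 in WT. Of the genes called lower in WT, 234 could be measured in KO, where 62 (26.5%) were called lower and 0 higher. Since the genes were chosen on the WT values, a smaller ratio in KO is favoured by the choice, and the difference between genotypes was not tested.

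Single genes showed which parts of the step appeared in both genotypes. Ripk2 had 77 counts at 15 min and 53 at 45 min in KO (log2 ratio -0.72), Tnfaip2 had 48 and 50 (-0.12), Icam1 78 and 68 (-0.38), Nfkbie 18 and 21 (0.04), and Csf1 820 and 1061 (0.19). None of these 5 was called in KO. Bhlhe40, by comparison, had 229 and 985 counts (1.92, 1.71 to 2.14), and Snai1 had 52 and 240 (2.02, 1.59 to 2.49). Gadd45b had 95 and 427 (1.99, 1.66 to 2.32), and Skil, a SMAD co-repressor gene, had 1017 and 2757 (1.26, 1.15 to 1.36), beside 1.27 in WT. Genes of the inflammatory lists were among those called higher in KO too. Tnfaip3 had 22 and 51 counts (1.03, 0.28 to 1.82), Cd44 had 679 and 1802 (1.23, 1.10 to 1.36) and Lif had 118 and 331 (1.31, 1.0 to 1.62). These 7 genes were called higher in both genotypes, as were Klf10, Noct, Nfatc1 and Cx3cl1.

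The falling genes also appeared in KO. Fos went from 866 to 124 counts (-2.99, -3.27 to -2.71), Apol8 from 182 to 28 (-2.88, -3.51 to -2.30), Dusp1 from 1000 to 443 (-1.36, -1.52 to -1.19), Arc from 555 to 138 (-2.19) and Nr4a1 from 896 to 344 (-1.56). Of the 17 early genes that fell in WT, 10 could be measured in KO at this step and 6 of them (60.0%) were called lower. Ereg was an exception, with 60 and 75 counts in KO (0.14). Ahr, at 156 and 183 (0.05), and Card10, at 63 and 75 (0.07), fell in WT and were called neither way in KO. Among the genes that held in WT, 7 of 49 were called lower in KO, and the lowest named is Cxcl1, with 102 and 22 counts (-2.39, -3.13 to -1.72). Zfp36 was another, with 418 and 118 counts (-2.01). The EGR and IER list had 10 of 15 called lower and 1 higher in KO, with a median of -1.445 beside -0.764 in WT.

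**Figure D4:**
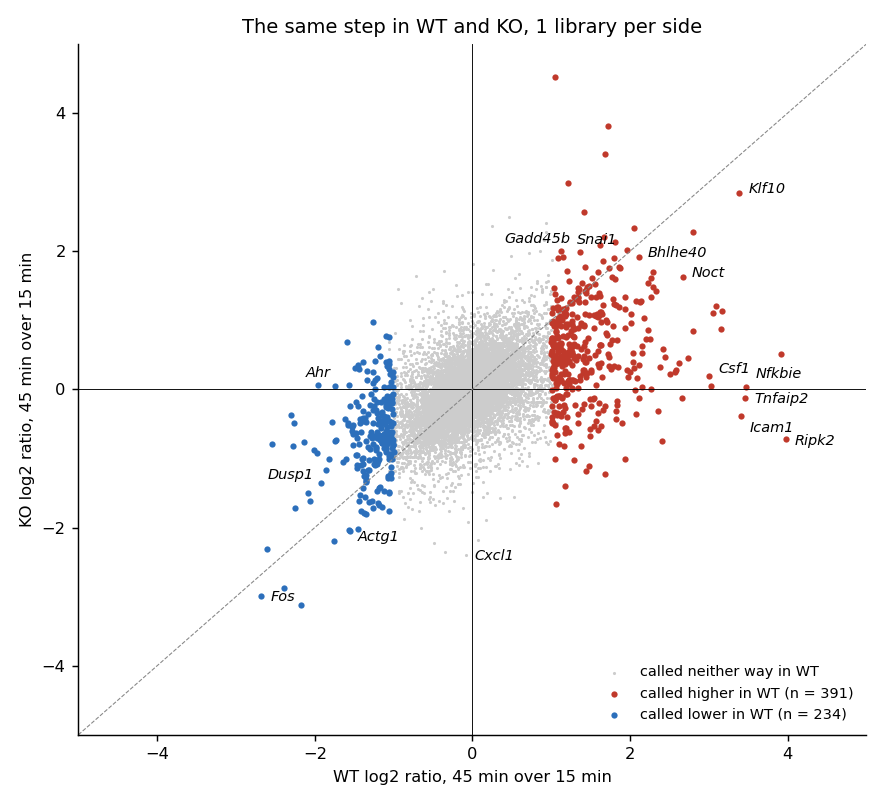
Each point is a gene measured at 45 over 15 min in WT (horizontal axis, log2 ratio) and KO (vertical axis, log2 ratio), 1 library per side, with genes called higher in WT in red (391), lower in blue (234) and the dashed line where the ratios are equal. Ripk2, Icam1, Nfkbie and Csf1 lie near or below 0 in KO, Klf10, Noct and Bhlhe40 lie high in both, and Fos lies low in both.

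Gene span is a property that the calls did not use. The median span from the first to the last exon was 3488 bases for the 13 named genes that fell, 6727 for the 39 that held and 8082 for the 17 continuing risers. It was 27253 for the 263 late starters with a name, close to the 26028 for all 11214 measured genes with one. Spans under 10 kb made up 76.9%, 61.5%, 64.7% and 23.6% of these classes, against 22.1% overall. Late starters included long genes such as Nfkb1 (106893 bases), Nfatc1 (106867) and Ets1 (121600), and also short ones such as Klf10 (6295) and Bhlhe40 (6297). With predicted models included, the medians were 3034, 4630, 7548 and 20107 bases, against 21688 for all 12928. Classes without a called early rise held short genes too. Named genes with a small early rise had a median of 12838 bases, with 39.0% under 10 kb. For a small early dip these values were 16282 and 27.6%, and for an early dip called lower 13543 and 41.4%. The median count in the higher library was 56 for genes that fell, 45.5 for genes that held and 310.5 for continuing risers, against 157.5 overall. The part of span or of counts in the classes was not tested.

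**Figure D5:**
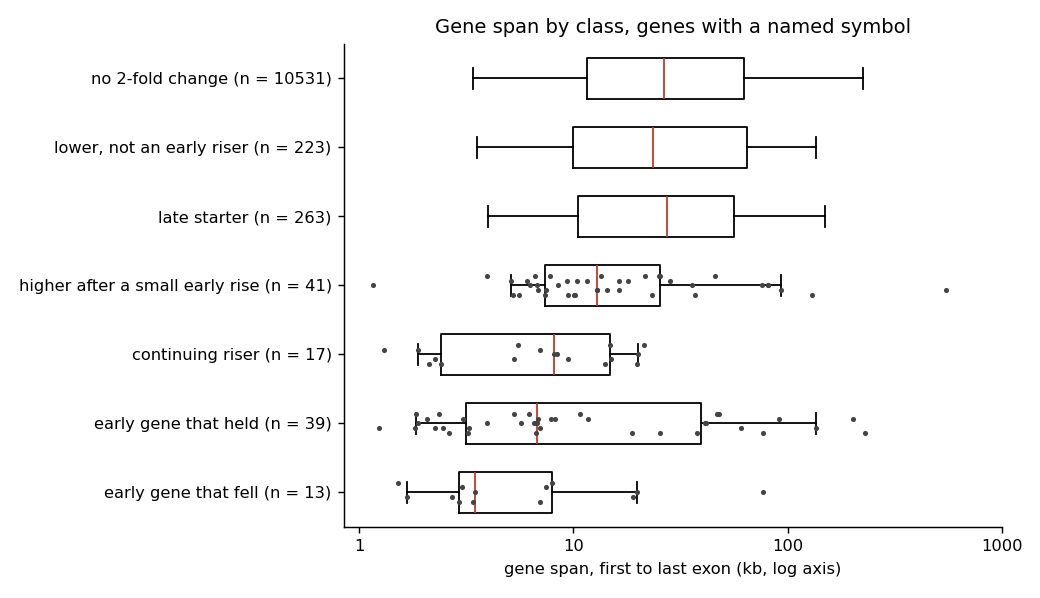
Gene span in kb on a log axis for named genes of 7 classes, as boxes from the first to the third quartile with the median in red and whiskers to the 5th and 95th percentiles, and single genes as points in the 4 smaller classes. The classes with an early dip are not drawn. Early genes that fell (median 3488 bases) and continuing risers (8082 bases) lie left of the late starters (27253 bases) and of genes with no 2-fold change (26489 bases).

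Promoter stretches of 300 bases, from 250 before to 50 after the start site, were found in the RefSeq table for 9235 of the 12928 genes. The kB consensus matched in 20.1% of late starters (43 of 214), 29.7% of genes with a small early rise (11 of 37), 9.4% of genes with a small early dip (5 of 53), 8.0% of genes with an early dip called lower (2 of 25), 46.2% of continuing risers (6 of 13), 19.4% of genes that held (6 of 31) and 50.0% of genes that fell (4 of 8, Fos among them). It matched in 5.4% of genes lower without an early rise (10 of 185), in 6.4% of all measured genes (590) and in 4.5% of all 32851 promoter entries of the table. The CArG box matched in 3.8% of genes lower without an early rise (7 of 185, Srf among them), 6.5% of genes that held (2 of 31), 1.9% of late starters (4 of 214) and 0 of 8 genes that fell, against 1.6% of measured genes. TGAGTCA matched in 8.9% of late starters and 30.8% of continuing risers (4 of 13), against 4.3%. It matched in 0 of the genes that held, that fell or that had an early dip called lower. TGACGTCA matched in 3.3% of late starters, against 3.7%. TATAAA matched in 10.7% of late starters, 30.8% of continuing risers (4 of 13) and 19.4% of genes that held (6 of 31), against 8.5%. It matched in 1 of 8 genes that fell and 0 of 25 with an early dip called lower. Classes of 8 to 37 promoters give coarse shares, and a missing match says only that these letters are absent from this window.

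Neighbouring genes were counted among the calls. Of the 524 genes called higher, 15 (2.86%) started within 10 kb downstream, on the same strand, of another gene called higher, against 72 of all 12928 genes (0.56%). Icam4, with 2, 4, 49 and 35 counts, and Icam5, with 16, 9, 58 and 101, lie downstream of Icam1. Slc35b2, with 133, 100, 217 and 242, lies downstream of Nfkbie, and the predicted model Gm11874, with 2, 0, 62 and 36 counts, downstream of Ripk2. Gm11874 was 1 of 2 genes with 0 counts at 15 min, and 45 min was at least 19.8-fold higher than the limit of 3 counts that a count of 0 allows in that library. Where the reads of such pairs began was not analysed here.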

How the data were processed

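Chromatin-associated RNA from 8 samples was depleted of ribosomal RNA and made into stranded libraries, which were sequenced as single-end reads of 50 bases, per the labels' protocols. The submitters' processing notes name cutadapt 1.12, STAR, featureCounts 1.5.0, DESeq2 and the build mm10. The authors deposited whole-number counts per gene with coordinates and an exon length, per the file headers. Overlapping genes and near-identical copies are uncertain, with the annotation release, the strand setting and the handling of reads that match several places not given in the sources used here. Symbols were matched by identifier for 98.77% of 45706 rows.

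Samples were grouped by genotype and time. Ratios are of shares of the library total without 3 gene models, with exact Clopper-Pearson intervals at 95% for counting error only, since PCR copies are not independent molecules. A count of 0 allows up to 3 counts, or 0.567 and 0.544 CPM in WT at 15 and 45 min. CPM values were computed here from the deposited counts. The calls were tried on simulated counts with counting error only, which cannot show how they hold against differences between libraries. Members, the 31 gene lists and the motifs were chosen with earlier results of these data known. Named genes were the 10 of each main class whose interval bound lay farthest from no change, up to 4 called members each way per list, and all NF-kB and IkB genes. Others are named for their role. Values of 1 marker gene are not reported here. Python 3.11.15, scipy 1.17.1 and matplotlib 3.10.9 were used, with R 4.3.3, edgeR 4.0.16 (TMM) and DESeq2 1.42.0 (size factors) for alternative scalings only.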

Additional observations from a re-analysis of the deposited data

How the results depend on the processing

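The main counts were 524 higher, 318 lower, 326 late starters, 18 continuing risers, 68 early genes that held, 17 that fell and 38 that dipped and then rose. TMM scaling gave 568 higher and 273 lower calls and median-of-ratios scaling 586 and 268, every class stayed within 1.5 times its count, and 319 of the 326 late starters and 17 of the 17 genes that fell were shared under TMM. With the 3 gene models in the totals, 208 genes were lower, 26 held, 8 fell and 93 dipped and then rose. At 50 counts or more, 155 were lower, 28 held, 9 fell and 10 dipped and then rose. A 1.5-fold threshold gave 1107 higher, 1029 lower, 787 late starters, 57 continuing risers, 138 that held, 85 that fell and 154 that dipped, and a 3-fold threshold gave 200, 51, 114, 6, 24, 3 and 2. With the 60 min library in place of 45 min, 508 were lower and 26 fell, and 245 of the 326 late starters were shared. Of the 524 higher and 318 lower calls, 386 and 175 were shared. Psmb8 turned to a log2 ratio of 0.90 and Dusp14 to -0.05. Genes also changed class: of the 68 that held, 51 were shared at 1.5-fold and 16 at 3-fold. The cause of these shifts was not tested. A narrower and a wider window for the first step gave 222 and 441 late starters. Named genes stayed inside their counting intervals in 99 of 99 cases under TMM and under median-of-ratios scaling. A change of totals shifts all log2 ratios by 1 shared amount, so the 99 cases are not separate checks. With the 3 gene models in the totals 12 named genes moved beyond their intervals, and with the 60 min library 39 moved and 2 reversed. No paired analysis was possible because each genotype and time has 1 library and the labels carry no replicate numbers. Depth limits genes near 20 counts, and intervals do not cover differences between cultures.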

Other observations

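Called higher at 45 over 15 min in WT and lower in KO were 7 genes: A630081D01Rik, A2m, Chst15, Cyp4v3, Traf3, Scube3 and Zbtb7c. Traf3, which encodes an adaptor that restrains alternative NF-kB signalling, had WT counts of 357, 333, 850 and 1370 over the 4 times, against KO counts of 327, 231, 129 and 217. The log2 ratio was 1.29 (1.11 to 1.48) in WT and -1.02 (-1.34 to -0.71) in KO. A2m, a protease inhibitor gene, had WT counts of 12, 12, 34 and 48, against KO counts of 52, 20, 10 and 15. These genes were chosen after their values were seen, and the difference between genotypes was not tested.

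Receptors for interferon gamma were late starters although no interferon-stimulated gene on the list was called. Ifngr1 had 165, 152, 495 and 452 counts in WT (log2 ratio 1.64, 1.38 to 1.92) and Ifngr2 had 165, 124, 507 and 433 (1.97, 1.69 to 2.27). In KO, Ifngr1 had 122 and 156 counts at 15 and 45 min and Ifngr2 had 96 and 123, and neither was called. Bid, a pro-apoptotic member of the BCL2 family, had 89, 83, 575 and 496 counts in WT (2.73, 2.40 to 3.08), and Optn, the gene for the ubiquitin-binding protein optineurin, had 81, 86, 550 and 479 (2.62, 2.29 to 2.96). These 4 genes, too, were picked after their values were seen.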
